A study of Mus musculus with 2 samples.

Results

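Interleukin 10 and interleukin 6 are cytokines that signal through the Janus kinase and STAT pathway, and 10 genes of their signalling chains are described here. They are the cytokines Il10 and Il6, the receptor chains Il10ra, Il10rb, Il6ra and Il6st, the transcription factor Stat3, and the feedback inhibitors Socs1, Socs3 and Cish. They were taken by their names on the array, IL10, IL10RA, IL10RB, IL6, IL6RA, IL6ST, STAT3, SOCS1, SOCS3 and CISH, and each name matched exactly 1 of 31492 array genes. Gene expression had been measured on Illumina bead arrays in osteoclast precursors from the bone marrow of C57BL/6 mice aged 8 weeks. The precursors were sorted as CD3-, CD45R-, CD11b low or negative and CD115+, CD115 being the receptor for macrophage colony-stimulating factor (M-CSF). They were cultured for 3 days in medium with fetal bovine serum and either M-CSF plus RANKL, both at 30 ng/ml, or M-CSF alone at 30 ng/ml, and RNA was taken from the adherent cells. M-CSF, which both cultures received, keeps monocytes and macrophages alive, and RANKL is the cytokine that starts osteoclast formation. Each group is the mean of 3 biological replicates, each on its own array. The labels do not say whether the replicates were separate animals, sorts or cultures. The p-values therefore reflect only how much these arrays varied, which may be technical.

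In both chains a cytokine binds a receptor made of a specific and a shared chain, the receptor switches on Janus kinases, and these phosphorylate Stat3, which enters the nucleus. Interleukin 10 limits the inflammatory output of macrophages and is known to restrain osteoclast formation. Interleukin 6 is an inflammatory cytokine linked to bone loss. SOCS proteins are made in response to STAT signalling and switch it off again.

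Values are the authors' normalized intensities on a linear scale, given as mean ± SD over the 3 arrays of a group. Array genes detected in neither group had a median signal of 144, which is the background here. A gene was taken as detected at a detection p under 0.01. A gene detected in at least 1 group was tested with limma's moderated test on log2 means, with Benjamini-Hochberg adjustment over all 11012 such genes. The lowest reliably detected signals were 196 with RANKL and 198 with M-CSF alone. They were taken only among detection p-values that move in the equal steps of a rank among control beads. Some other genes passed detection at lower signals, such as Jak3 at 190 with RANKL. A fold is given as "at least" its value where 1 group lay below its lowest reliably detected signal without detection. It was then computed against that lowest signal. Precision is limited by the 3 arrays in each group. Single arrays are not analysed here, but 3 values cannot lie farther than 1.41 SD from their mean, whichever divisor the SD used. Where the ranges set by this limit part, the arrays of the groups cannot overlap.

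The cultures carried the markers of their labels. Of 8 osteoclast markers, 7 were higher with RANKL and 1 was not tested. Of 7 monocyte and macrophage markers, 6 were lower and 1 did not pass. Shares over all tested genes were 28.9% higher and 29.0% lower. Acp5, Ocstamp, Itgb3 and Oscar entered the test only through the RANKL culture, a class in which 63.7% were called higher. C1qa entered only through the M-CSF culture, a class in which 62.9% were called lower. The count of these genes is therefore weak support for the labels. Ctsk, Mmp9 and Dcstamp, which passed detection in both groups, rose 224-fold, 286-fold and 71.5-fold. Neutrophil granule genes were detected in both cultures (4 of 5 on the array), and none of them passed the test. Among markers of other cell types that can make Il10 or Il6, 0 of 8 stromal, 0 of 6 dendritic and 0 of 6 mast cell and basophil genes were detected. The dendritic gene Siglech nevertheless read 200 ± 15.1 with RANKL and 219 ± 19.7 with M-CSF alone, above the lowest reliably detected signals. Its detection p was 0.0208 with RANKL and 0.0392 with M-CSF alone. Of 9 T and NK cell markers only Cd5 was detected (462 ± 50.8 with RANKL, 136 ± 5.92 with M-CSF alone). Of 7 B and plasma cell markers, Sdc1 (555 ± 30.8 with RANKL, 160 ± 7.15 with M-CSF alone) and Cd79b (205 ± 21.3 with RANKL, 286 ± 7.64 with M-CSF alone) were. Cd5 and Sdc1 were called higher with RANKL, and Cd79b was called lower. The other genes of these lists, among them Cd3d, Cd3e, Cd3g and Ms4a1, were detected in neither culture. In RNA from whole cultures, fewer cells of a type and less RNA per cell cannot be told apart.

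With RANKL the cytokine Il10 was higher while both chains of its receptor were lower, and Il6ra, Stat3 and Socs3 were lower as well. Cish was the other gene that rose. Of the 10 genes, 7 were tested, and 2 rose and 5 fell, in an experiment in which 57.8% of all tested genes were called, 28.9% higher and 29.0% lower. The 5 that fell were detected in both groups, where 28.6% of 9270 genes were called lower. Il10 and Cish entered the test only through the RANKL culture, where a rise is the likelier call: of 928 genes detected with RANKL only, 63.7% were called higher. Their count is therefore no support for a direction. In all 7 tested genes the arrays of the groups could not overlap, which held for 50.8% of all tested genes, called or not. This follows from the same means and SDs as the test that all 7 had passed. It is therefore no separate support. Il6, Il6st and Socs1 were detected in neither group and were not tested.

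**Figure D1:**
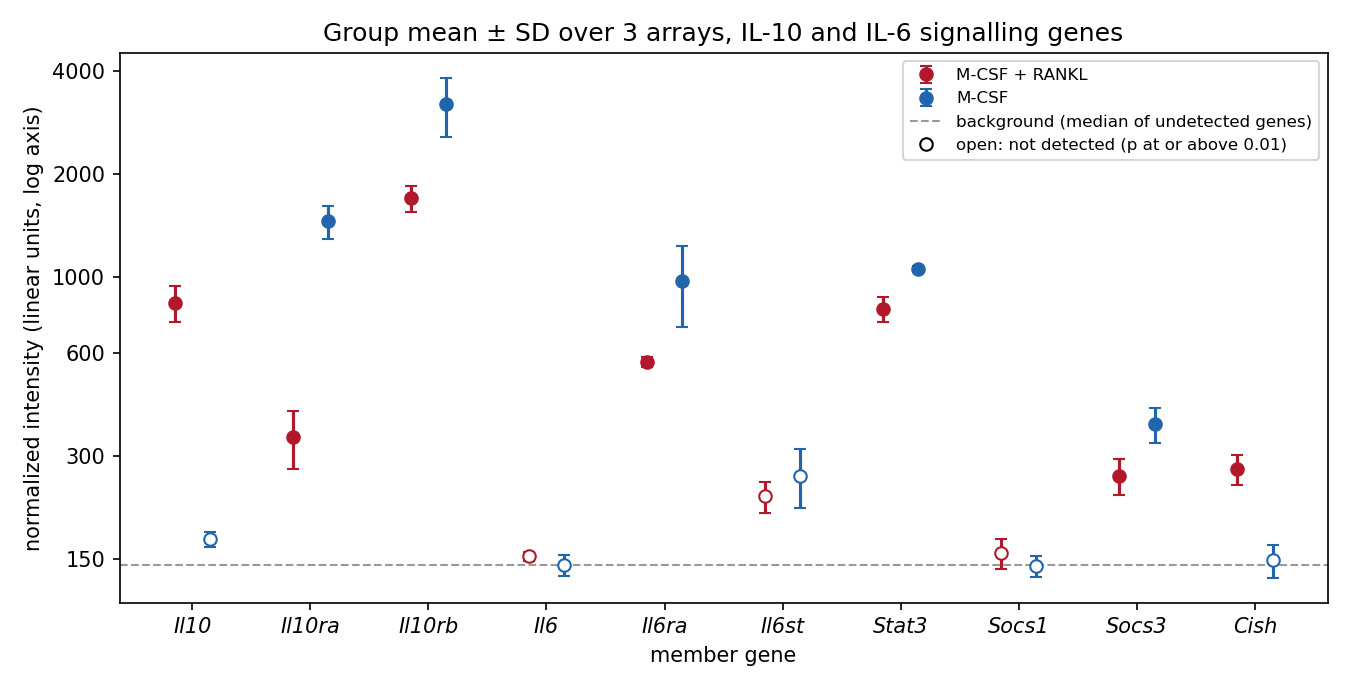
Normalized intensity (log axis) of the 10 genes in M-CSF + RANKL cultures (red, left of each pair) and M-CSF cultures (blue), as means with SD over 3 arrays; open points are groups in which the gene was not detected, and the dashed line is the background of 144. Il10 and Cish were detected with RANKL only, whereas Il10ra, Il10rb, Il6ra, Stat3 and Socs3 were detected in both cultures and lower with RANKL.

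The ligand Il10 read 838 ± 101 in RANKL cultures, against 171 ± 8.80 in M-CSF cultures. All arrays with RANKL must lie between 695 and 980 and all arrays with M-CSF alone between 159 and 183, so the groups do not overlap. The M-CSF signal was not detected (detection p 0.0726), and the rise was at least 4.24-fold (log2 of the measured means 2.29 ± 0.11 SE, adjusted p = 5.73e-09, limma). After subtraction of background the measured ratio was 26.0, which is not a bound, because the M-CSF signal lay close to background.

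Il6, the ligand of the second chain, stayed at background. It read 153 ± 4.50 with RANKL and 144 ± 9.84 with M-CSF alone, with possible ranges of 146 to 159 and 130 to 158 that overlap. In a fit of all array genes without a detection filter the ratio of the means was 1.06 (95% interval 0.94 to 1.20, adjusted p = 0.588, limma). This interval covers signals that are mostly background, so it does not limit a change in a transcript below detection.

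Il10ra, the chain that binds interleukin 10 and sets which cells respond to it, showed the largest fall of the 7 tested genes. It read 340 ± 65.0 in RANKL cultures, against 1451 ± 161 in M-CSF cultures. The highest value possible with RANKL was 432 and the lowest possible with M-CSF alone 1224. The fall was 4.27-fold (log2 -2.09 ± 0.14 SE, adjusted p = 1.29e-07, limma), rank 171 among the falls of all tested genes, and 6.69-fold after subtraction of background. In the same comparison 6 of the 7 monocyte and macrophage markers fell. The falls were 1.44-fold for Csf1r, 2.12-fold for Itgam, 3.73-fold for Cd14, 6.11-fold for Adgre1, 24.7-fold for Cx3cr1 and at least 24.7-fold for C1qa, so that of Il10ra lay within their range. Cd68, the brightest of the 7 (33656 with RANKL, 35480 with M-CSF alone), did not pass. The signals of all 7 above background summed to 50349 with RANKL and 94958 with M-CSF alone, sums to which Cd68 and Csf1r contributed most with RANKL. The part that a change in those cells plays in the fall of Il10ra was not tested.

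Il10rb, the second chain, is shared with the receptors of interleukin 22, interleukin 26 (in humans) and the lambda interferons. It read 1695 ± 146 in RANKL cultures, against 3187 ± 620 in M-CSF cultures. The M-CSF arrays varied more, with an SD of 19.5% of the mean against 8.61% with RANKL, yet their lowest possible value, 2310, stayed above the highest possible with RANKL, 1902. The fall was 1.88-fold (log2 -0.91 ± 0.14 SE, adjusted p = 0.000115, limma). In a test of the linear means without moderation the adjusted p was 0.0947. The 95% interval of the log2 change ran from -1.21 to -0.61 for Il10rb and from -2.40 to -1.79 for Il10ra. Whether the falls of the chains differ was not tested.

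**Figure D2:**
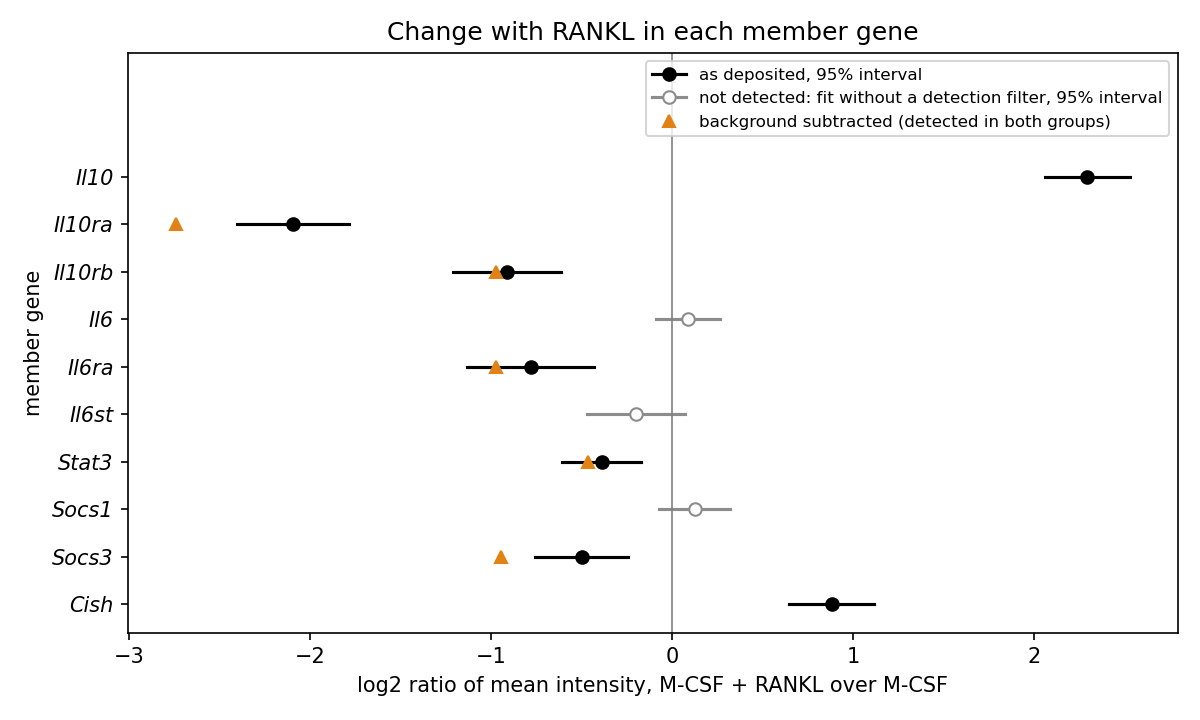
Log2 ratio of mean intensity, M-CSF + RANKL over M-CSF, for each gene, with 95% intervals; grey open points come from the fit without a detection filter, triangles show the ratio after subtraction of background for genes detected in both groups, and the points of Il10 and Cish are measured means against an undetected M-CSF signal. The intervals of Il10 and Cish lie above 0, those of Il10ra, Il10rb, Il6ra, Stat3 and Socs3 below it, and those of Il6, Il6st and Socs1 include 0.

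Il6ra encodes the chain that binds interleukin 6 on the cell surface, and also a soluble form that lets other cells respond. It read 564 ± 18.7 in RANKL cultures, against 969 ± 258 in M-CSF cultures. The SD with M-CSF alone was 26.7% of the mean, the widest of the 10 genes in either culture. The possible ranges came close, with at most 590 with RANKL and at least 604 with M-CSF alone, and did not overlap. The fall was 1.72-fold (log2 -0.78 ± 0.16 SE, adjusted p = 0.00126, limma). It did not pass with both SDs doubled (adjusted p = 0.0947) or in the test of linear means without moderation (adjusted p = 0.179).

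Il6st encodes the shared chain that carries the signal of the whole interleukin 6 family. It read 228 ± 23.6 with RANKL and 262 ± 50.8 with M-CSF alone, above the lowest reliably detected signals in both cultures. Its detection p was nevertheless 0.498 with RANKL and 0.485 with M-CSF alone, and these are among the deposited detection p-values that do not move in the equal steps of a rank among control beads and do not follow the signal. In the fit without a detection filter its log2 change was -0.20 (95% interval -0.47 to 0.07, adjusted p = 0.356, limma). The possible ranges, 195 to 261 with RANKL and 190 to 334 with M-CSF alone, overlapped, and the interval leaves room for a ratio between 0.72 and 1.05.

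Stat3, the transcription factor on which both chains converge, had the smallest change among the tested genes. It read 805 ± 67.1 in RANKL cultures, against 1055 ± 21.6 in M-CSF cultures. Its M-CSF arrays were the tightest of the set, with an SD of 2.05% of the mean. All RANKL arrays lay at or under 900 and all M-CSF arrays at or above 1024. The fall was 1.31-fold (log2 -0.39 ± 0.10 SE, adjusted p = 0.00545, limma), and it did not pass with both SDs doubled (adjusted p = 0.181). The phosphorylation through which Stat3 acts was not measured.

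The feedback inhibitors differed in direction. Socs3 binds the shared chain of the interleukin 6 receptor and blocks its signal, but does not act on the interleukin 10 receptor. It read 262 ± 32.2 in RANKL cultures, against 370 ± 43.9 in M-CSF cultures, and the possible ranges only just parted, at 307 and 308. The fall was 1.41-fold (log2 -0.50 ± 0.12 SE, adjusted p = 0.00332, limma). It did not pass with both SDs doubled (adjusted p = 0.147) or in the test of linear means without moderation (adjusted p = 0.0704).

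Cish, the inhibitor that STAT5 induces and that limits signals of cytokines such as interleukin 2, went the other way. It read 273 ± 27.7 in RANKL cultures, against 149 ± 16.4 in M-CSF cultures. Every RANKL array lay at or above 234 and every M-CSF array at or under 172. With the M-CSF signal not detected, the rise was at least 1.38-fold (log2 of the measured means 0.88 ± 0.11 SE, adjusted p = 2.07e-05, limma). Subtraction of background gave 8.07, which is not a bound because the M-CSF signal then lay at its floor of 16.

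Socs1, which blocks Janus kinases directly and restrains interferon signals, stayed at background. It read 156 ± 15.7 with RANKL and 143 ± 9.91 with M-CSF alone. The ratio in the fit without a detection filter was 1.09 (95% interval 0.95 to 1.25, adjusted p = 0.455, limma), and the possible ranges overlapped.

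**Figure D3:**
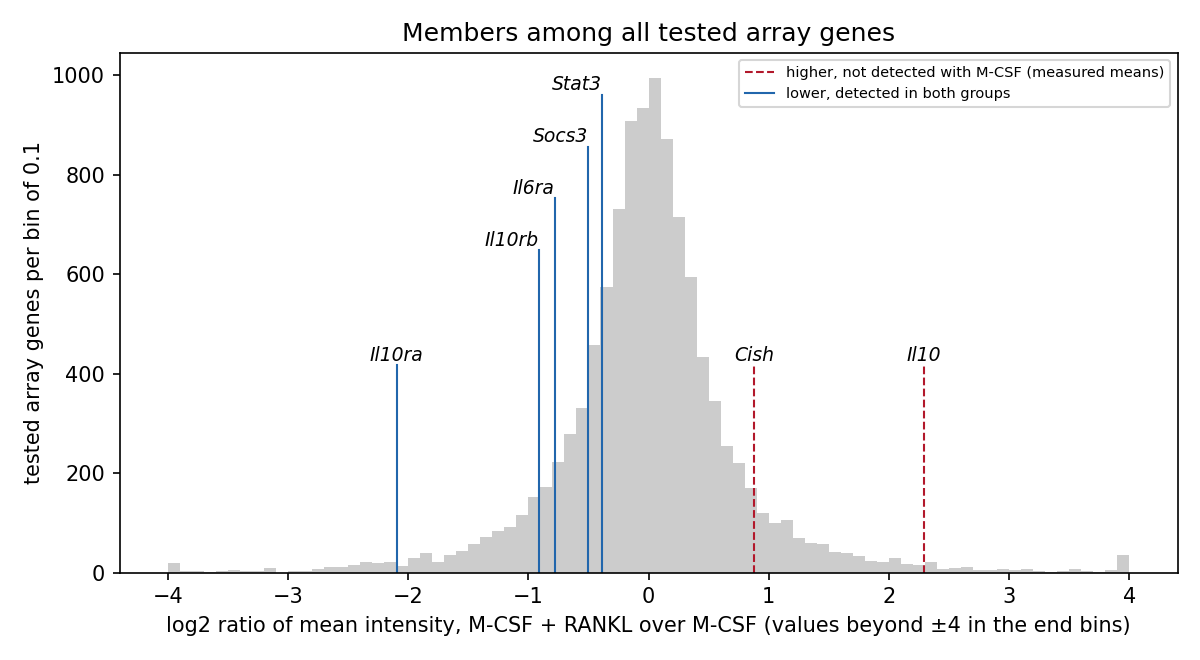
Distribution of the log2 ratio (M-CSF + RANKL over M-CSF) over the 11012 tested array genes in bins of 0.1, with the 7 tested genes marked; dashed lines are the measured means of Il10 and Cish, which were not detected with M-CSF alone, so that their places are not exact. Il10ra at -2.09 lies in the lower tail, whereas Stat3 at -0.39 and Socs3 at -0.50 lie in the body of the distribution.

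Promoter windows from RefSeq (build GRCm38.p6), the 250 bases before the annotated start, were at hand for 7 of the 10 genes. They were searched for TTCNNNGAA, the element that STAT dimers bind, and for TGANTCA, the element of AP-1, a factor that RANKL activates, each on both strands. A window with TTCNNNGAA occurred for 1 of the 7, Socs3, and one with TGANTCA for 1, Il6. Of all 32851 windows of this length, 7.02% held the first and 6.75% the second. The window of Cish is shown because it belongs to the gene of this set that rose and had a window, and that of Il6 because it belongs to a cytokine at background. Capitals mark a match to TGANTCA, the Cish window holds neither element, and the matches do not overlap.
Cish, chr9:107296409-107296658, plus strand: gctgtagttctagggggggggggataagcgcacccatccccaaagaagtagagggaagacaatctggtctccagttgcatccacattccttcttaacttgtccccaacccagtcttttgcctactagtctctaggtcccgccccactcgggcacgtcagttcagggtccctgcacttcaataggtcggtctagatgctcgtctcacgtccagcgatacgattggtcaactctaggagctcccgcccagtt
Il6, chr5:30012864-30013113, plus strand: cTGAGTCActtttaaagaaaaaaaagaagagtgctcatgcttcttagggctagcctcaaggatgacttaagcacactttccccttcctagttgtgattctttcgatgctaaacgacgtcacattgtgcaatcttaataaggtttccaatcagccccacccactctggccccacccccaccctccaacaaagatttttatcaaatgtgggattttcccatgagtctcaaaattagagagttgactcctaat
A match is a stretch of letters and not a measured binding site, and the lack of one says only that the letters are not in this window.

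Beyond the 10 genes, 89 further genes of the pathway were listed, of which 87 are on the array and 48 were tested. The test called 8 of these higher and 28 lower, and 12 did not pass, beside 28.9% higher and 29.0% lower over all tested genes. Of the 28 falls, 8 were in genes detected only in M-CSF cultures, a class in which a fall is the likelier call (62.9% of 814 genes). Among the 35 detected in both cultures, 7 were called higher and 20 lower, where 27.6% and 28.6% of all such genes were, and their median log2 change was -0.31 against -0.01 over all such genes. These counts describe lists chosen with earlier results known and carry no test of their own.

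Among signalling parts, no tested STAT or Janus kinase rose. All 4 tested of the other 6 STATs fell, 3 of them detected only in M-CSF cultures, and of 4 Janus kinases 2 fell, 1 did not pass and 1 was not tested. Over all tested genes 29.0% were called lower and 28.9% higher, and of 814 genes detected only in M-CSF cultures 62.9% were called lower. Stat2, which acts in the response to type I interferon, read 170 ± 4.69 in RANKL cultures, where it was not detected, against 399 ± 29.0 in M-CSF cultures, a fall of at least 2.03-fold (adjusted p = 2.58e-07, limma). Of 4 interferon receptor chains, which belong to the same receptor class as Il10ra and Il10rb, 2 fell, 1 rose and 1 was not tested. Ifnar2, a chain of the type I interferon receptor, fell 2.22-fold, to 290 ± 23.3 with RANKL against 644 ± 34.7 with M-CSF alone, and 3.42-fold after subtraction of background.

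The cytokines and receptors related to interleukin 6 were mostly not detected. Of 11 related cytokine subunits 2 were tested and both fell, 1 of them detected only in M-CSF cultures. Ebi3, the subunit that interleukin 27 and interleukin 35 share, fell 2.26-fold, to 766 ± 94.7 in RANKL cultures against 1730 ± 128 in M-CSF cultures. Of 9 receptors and sheddases 5 were tested, with 3 lower, of which 1 was detected only in M-CSF cultures, 1 higher and 1 not passing. The 1 not passing was Crlf2, named TSLPR on the array, which is listed here but is the TSLP receptor and not one of the interleukin 6 family. The shares over all tested genes were 29.0% lower and 28.9% higher. Adam17, a protease that cuts the interleukin 6 receptor from the cell surface, fell 2.47-fold, to 2470 ± 192 with RANKL against 6095 ± 675 with M-CSF alone. None of the 5 relatives of interleukin 10 on the array was tested, and the 1 tested chain of 5 related receptors did not pass.

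A further SOCS gene rose beside Cish. Socs2, a STAT5-induced inhibitor that limits growth hormone signals, read 1323 ± 325 in RANKL cultures, against 221 ± 14.6 in M-CSF cultures, a 6.00-fold rise (log2 2.58 ± 0.15 SE, adjusted p = 4.21e-08, limma) that was 15.4-fold after subtraction of background. Its RANKL arrays varied widely, and in the test of linear means without moderation the adjusted p was 0.0667. The other tested SOCS genes, 2 of 5 listed, did not pass. Of 8 other inhibitors on the array, 3 fell, 1 rose, 1 did not pass and 3 were not tested. All tested genes were called lower in 29.0% and higher in 28.9%. Pias3, which blocks DNA binding by Stat3, fell 2.12-fold, to 329 ± 39.7 with RANKL against 696 ± 84.7 with M-CSF alone.

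**Figure D4:**
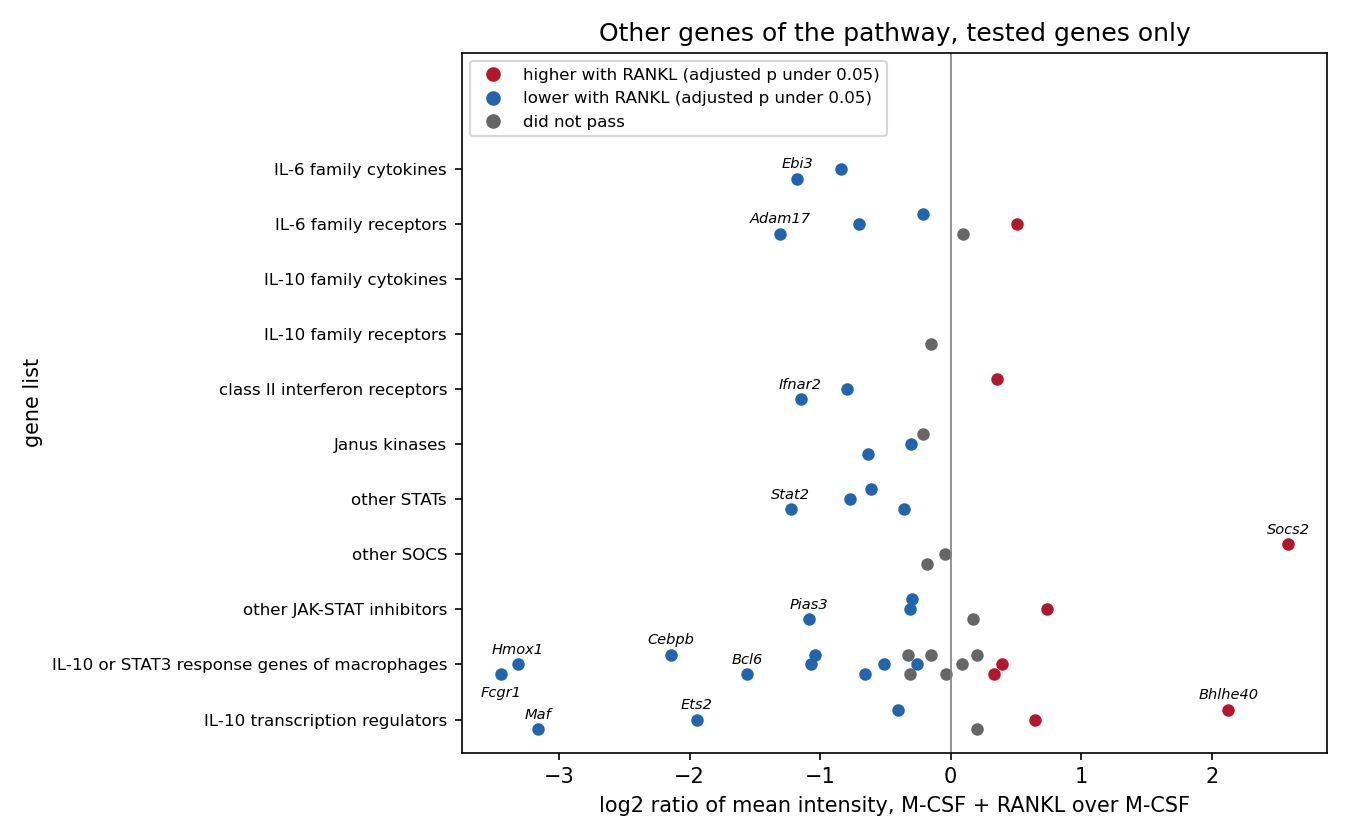
Log2 ratio of mean intensity (M-CSF + RANKL over M-CSF) of the tested genes in 11 lists of further pathway genes, coloured by the test; the named genes passed with a change of at least 1. Socs2 and Bhlhe40 lie farthest to the right, and Fcgr1, Hmox1 and Maf farthest to the left.

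Genes known to respond to interleukin 10 or Stat3 in macrophages were called lower in 9 of 17 tested cases and higher in 2, and 6 did not pass, beside 29.0% lower and 28.9% higher over all tested genes. Of the 9 falls, 2 (Il4ra and Pim1, named here after their values were seen) were in genes detected only in M-CSF cultures. Among the 13 detected in both cultures, the test called 7 lower and 2 higher and left 4 uncalled, with a median log2 change of -0.31. The 4 with the largest log2 changes all fell. Fcgr1, the high-affinity receptor for IgG, read 243 ± 62.2 in RANKL cultures, against 2646 ± 166 in M-CSF cultures, a 10.9-fold fall that was 25.3-fold after subtraction of background. Hmox1, the enzyme that degrades haem, fell 9.95-fold, to 1480 ± 88.5 with RANKL against 14721 ± 1944 with M-CSF alone. The transcription factor Cebpb fell 4.41-fold, to 5109 ± 544 with RANKL against 22517 ± 3251 with M-CSF alone. Bcl6, a transcriptional repressor, fell 2.95-fold, to 1232 ± 200 with RANKL against 3634 ± 160 with M-CSF alone. Adjusted p-values of these 4 were at most 4.07e-07 in limma. In the same comparison 6 of 7 monocyte and macrophage markers fell, from 1.44-fold (Csf1r) to at least 24.7-fold (C1qa). The falls of these 4 genes lay within that range. The part that a change in those cells plays in them was not tested.

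Transcription factors known to act on the Il10 gene did not share one direction. Of 6 tested, 3 fell, 2 rose and 1 did not pass, beside 29.0% lower and 28.9% higher over all tested genes. One of the rises, that of Prdm1, was in a gene detected with RANKL only, a class in which 63.7% were called higher. Maf, which activates Il10 in macrophages and T cells, read 207 ± 6.83 in RANKL cultures, against 1856 ± 119 in M-CSF cultures, an 8.94-fold fall (log2 -3.16 ± 0.10 SE, adjusted p = 1.63e-10, limma). With RANKL it was not detected (detection p 0.0430) but read above the lowest reliably detected signal, and the fall was 27.1-fold after subtraction of background. Ets2 fell 3.84-fold, to 2728 ± 129 with RANKL against 10483 ± 869 with M-CSF alone. Bhlhe40, which represses Il10 in mouse T cells, rose 4.37-fold, to 16320 ± 959 with RANKL against 3735 ± 152 with M-CSF alone.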

How the data were processed

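The deposited table gives, per array gene, the authors' normalized linear intensity in each group, its SD over arrays and a detection p-value. Per the labels, each value is the mean of 3 biological replicates run on separate arrays. How the authors normalized, with which software and on which array version, is not stated in the labels or headers. The deposited ratio of the means is named M-CSF over RANKL in the file header, but in all 31492 array genes it equals RANKL over M-CSF (relative tolerance 1e-06) and was not used. The deposited value table holds the same means.

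The log2 ratio of the means (RANKL over M-CSF) was tested in R 4.3.3. Its variance came from the deposited SDs by the delta method, was pooled over the groups on 4 degrees of freedom and moderated with limma 3.58.1 (squeezeVar, intensity trend, prior degrees of freedom 7.49). The SDs were taken as sample SDs, and if they were population SDs the variance was understated. Two-sided p-values were adjusted by the Benjamini-Hochberg method over 11012 array genes and a threshold of 0.05. The procedure was tested on simulated data. Lower bounds use the lowest detected signal among detection p-values in steps of 1 in 936. Array names were matched to RefSeq symbols (GRCm38.p6), and 9950 stayed unmatched. The brightest array gene stands for a symbol.

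Named were all 10 members and, per list, up to 4 genes past the threshold with an absolute log2 change of at least 1. Members and lists were chosen with earlier results of these data known. Alternatives covered the detection filter, moderation, SDs, background and centring.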

Additional observations from a re-analysis of the deposited data

How the results depend on the processing

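Among the alternatives tried for the members and named genes, 173 results kept their side of the threshold and 7 no longer passed. No direction reversed, but every alternative started from the same group means, so a reversal was hardly possible. With detection required in both groups 0 members rose, since Il10 and Cish were then not tested, while the same 5 members fell. In that setting 5186 of 9270 genes were called in either direction, against 6369 of 11012 in the main test. With both SDs doubled 2 members rose and 2 fell (Il10ra and Il10rb). Of the further pathway genes 3 rose and 20 fell, against 8 and 28 in the main test, and 3054 of 11012 genes were called in either direction. Without moderation, on linear means, 2 members rose and 2 fell (Il10ra and Stat3). Of the further pathway genes 4 rose and 23 fell, and 3868 of 11012 genes were called in either direction. Il10 passed under all 8 alternatives that tested it (adjusted p 1.75e-10 to 0.0308, limma or the test without moderation), Il10ra under all 9 (7.75e-09 to 0.0201) and Cish under all 8 (6.94e-06 to 0.0266). A filter that used signal and not detection, chosen after seeing the data, brought Il6st into the test, where it did not pass (adjusted p = 0.218, limma). Centring moved all log2 changes by 0.01. Leaving out replicates was not run because only group means and SDs are in the tables. No paired analysis was possible because the columns carry no replicate numbers. Signals near the background of 144 limit what can be said of Il6 and Socs1.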

Other observations

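Some genes of the pathway had signals well above background in at least 1 group but a detection p at or above 0.01 in both groups, and so were not tested. Lif, a cytokine of the interleukin 6 family, read 342 ± 17.8 in RANKL cultures, against 136 ± 1.64 in M-CSF cultures. Jak2, a kinase of cytokine receptors, read 359 ± 34.8 in RANKL cultures, against 663 ± 80.8 in M-CSF cultures. Cd163, a scavenger receptor that interleukin 10 induces in macrophages, read 147 ± 8.54 in RANKL cultures, against 523 ± 40.7 in M-CSF cultures. These 3 genes were chosen after their values were seen. The RANKL signal of Lif was 1.73-fold the lowest reliably detected signal of M-CSF cultures. The M-CSF signal of Cd163 was 2.66-fold that of RANKL cultures. Neither is a bound on the change, because these brighter signals did not pass detection either (detection p 0.0948 and 0.147). The log2 change of Jak2 was -0.88.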
